A study of Sus scrofa with 16 samples.

Results

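PCK1, PCK2, FBP1 and PC encode enzymes of the path by which pyruvate is turned back towards glucose. They are 4 of the 6765 genes that the array's annotation names, and were measured by 6 of the 23999 non-control probe sets of a porcine Affymetrix array, taken as every probe set whose annotated symbol is 1 of these 4 genes. PCK1, FBP1 and PC (Entrez genes 100144531, 397038 and 397630 in the annotation) had 1 probe set each. PCK2 (Entrez gene 403165) had 3, of which the brightest is given below unless the second or the third, which were much dimmer, is named.

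Iberian pigs, a breed that lays down much fat, were slaughtered at 211 days of age, and total RNA of liver and of subcutaneous backfat was put on arrays. Males and females had been kept either on a high feeding level or on 1 restricted by 20%, here called low. The 16 arrays formed 8 groups of 2, high-fed and low-fed males and females in each tissue, so that each feeding level had 4 arrays per tissue, 2 of each sex. Before the restriction all animals shared a single pelleted diet. Castration of the males and the length of the restriction are not stated in the labels.

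In liver, PC carboxylates pyruvate to oxaloacetate inside the mitochondrion. The cytosolic PCK1 and the mitochondrial PCK2, both phosphoenolpyruvate carboxykinases, convert oxaloacetate to phosphoenolpyruvate, and FBP1 removes a phosphate from fructose bisphosphate nearer the end of the path. In fat cells, which release no glucose to speak of, PC and PCK1 serve glyceroneogenesis, the making of the glycerol backbone onto which fatty acids are put back as triglyceride. PCK1 is known as a gene whose transcription is raised by glucagon or adrenergic signals through cyclic AMP and lowered by insulin.

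Values are GCRMA expression on a log2 scale, in which 1 unit is a doubling, and a probe set is called above the floor when it exceeds 4. The level of a probe set is not set against that of another gene. Array medians ran from 3.93 to 4.12. As a check of the sex labels, the Y-linked EIF1AY ranged from 8.69 to 9.47 on male arrays and from 2.78 to 2.97 on female ones. All 15 hepatocyte markers on the array were higher in liver (limma), and 5 of 5 fat cell markers were above 4 on every backfat array. On the liver arrays ADIPOQ, LEP and LPL were below 4 throughout, FABP4 was above 4 on 2 and CFD on all 8. Each of 7 skeletal muscle markers was below 4 on all 16 arrays. Nothing in the labels names the replicates beyond an animal number, and 2 arrays per group limit the precision of every difference.

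The first comparison was between the tissues. PCK1, PCK2 and FBP1 were higher in liver, and PC was higher in backfat. All 6 probe sets passed the threshold (limma, Benjamini-Hochberg adjusted p below 0.05 over 13962 probe sets), a threshold that 75.7% of all tested probe sets passed. The 5 that were higher in liver stand against 32.2% of probe sets called in that direction, and PC against 43.6% called higher in backfat. None of the 6 overlapped between the tissues. Over all probe sets, 18.3% had all liver arrays above all backfat arrays and 26.7% had them all below. However, 3 of the 6 measure PCK2, and its dimmer probe sets were above 4 on 0 of 8 backfat arrays. They entered the test through liver arrays alone, so the filter partly set their calls and their lack of overlap. The dimmest was above 4 on only 4 of 8 liver arrays. The brightest probe set of each gene was above 4 on at least 7 of 8 arrays in each tissue.

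PCK1 ran from 9.79 to 12.41 in liver, with a median of 11.53, and from 4.44 to 9.16 in backfat, with a median of 7.63. All its backfat arrays lay above 4 and below the lowest liver array. The difference, liver minus backfat, was 4.25 ± 0.46 (SE), or 19.1-fold, with an adjusted p = 5.20e-06 from limma. Over the 8 groups of sex and feeding its mean was highest in the livers of low-fed females, at 12.35, followed by high-fed females at 11.40, high-fed males at 10.99 and low-fed males at 10.93. The last 3 of these groups overlapped, since the 2 high-fed males stood at 9.79 and 12.19. In backfat the order was low-fed females at 8.83, low-fed males at 8.25, high-fed males at 5.97 and high-fed females at 5.61. Here the 2 low-fed groups overlapped each other, as did the 2 high-fed groups.

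PCK2, the mitochondrial form, lay between 9.71 and 10.73 in liver, with a median of 10.46. In backfat it lay between 3.88 and 4.71 and was above 4 on 7 of 8 arrays, so that it stood close to the floor there. The difference was 6.07 ± 0.13 (SE; adjusted p = 2.91e-12, limma), or 67.1-fold. With backfat so close to the floor, the size of that fold is less certain than its SE shows. The second PCK2 probe set averaged 4.79 in liver and the third 4.22, and both were below 4 on all backfat arrays. Taken against a floor of 4 they were at least 1.72-fold and at least 1.16-fold higher in liver.

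FBP1, the liver form of fructose bisphosphatase, ran from 11.84 to 13.52 in liver, with a median of 12.60, and from 8.36 to 9.65 in backfat, with a median of 8.84. Its difference was 3.70 ± 0.22 (SE; adjusted p = 2.00e-08, limma), or 13.0-fold. It was therefore well above the floor on every backfat array, although higher in liver. PC ran the other way, from 9.86 to 11.72 in liver, with a median of 11.12, and from 12.32 to 12.76 in backfat, with a median of 12.52. The difference was -1.59 ± 0.18 (SE; adjusted p = 7.60e-06, limma), which makes PC 3.02-fold higher in backfat.

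**Figure D1:**
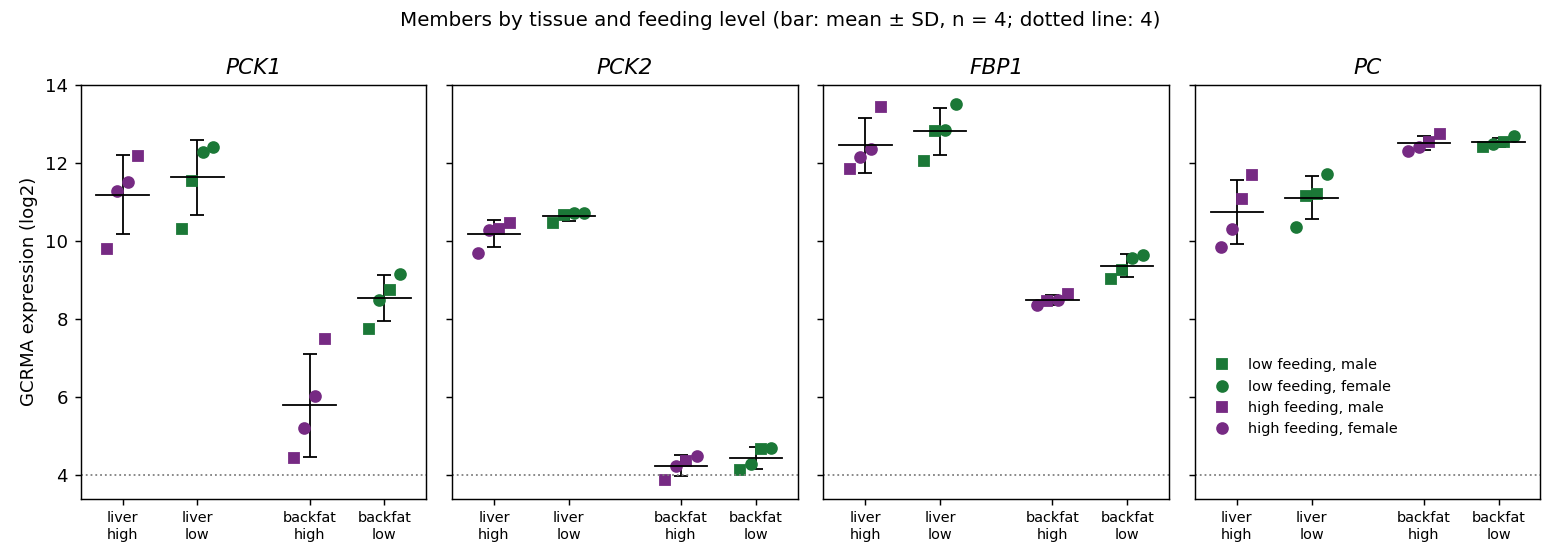
GCRMA expression (log2) of the main probe set of PCK1, PCK2, FBP1 and PC on each array, by tissue and feeding level. Green is low and purple high feeding, squares are males, circles females, black bars the mean ± SD of 4 arrays and the dotted line the floor of 4. In backfat the low-fed arrays of PCK1 (7.76 to 9.16) and FBP1 (9.03 to 9.65) lie above all high-fed arrays, and PC is the member that is higher in backfat than in liver.

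The same animal numbers label liver and backfat arrays of the 4 males, which allowed the tissues to be set against each other within an animal. For PCK1 the liver array exceeded the backfat array of the same male by 4.69 and 5.35 in the high-fed males 14 and 17, and by 2.81 and 2.55 in the low-fed males 15 and 16. FBP1 differed by 4.80 and 3.37 in males 14 and 17 and by 3.80 and 2.80 in males 15 and 16. PCK2 differed by 5.96 to 6.59 and PC by -1.45 to -1.05. Every member thus kept its direction in 4 of 4 males, and for PCK1 both low-fed males had the smaller gap.

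The study's treatment was the feeding level, and in backfat PCK1 and FBP1 were the members that separated the levels. PCK1 stood at 7.76, 8.50, 8.74 and 9.16 on the low-fed arrays, against 4.44, 5.20, 6.02 and 7.50 on the high-fed ones. The highest high-fed array, that of male 14, lay just under the lowest low-fed array, that of male 16. Its low minus high difference was 2.75 ± 0.66 (SE; 95% interval 1.17 to 4.33), a 6.73-fold difference, and it was the 4th largest in size among 12686 probe sets. Its p-value did not pass after adjustment (limma, adjusted p = 0.252).

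FBP1 stood at 9.03, 9.26, 9.56 and 9.65 on the low-fed backfat arrays, against 8.36, 8.47, 8.48 and 8.65 on the high-fed ones. The groups did not overlap, and the 2 low-fed females were above the 2 low-fed males. The difference was 0.88 ± 0.12 (SE; 95% interval 0.59 to 1.18), or 1.85-fold, with the 18th lowest p-value of the 12686 probe sets, and it too did not pass (limma, adjusted p = 0.165). FBP1 thus differed by less than PCK1 but varied less between animals of a group. Its SD within groups was 0.12, and 89.4% of probe sets had a larger one, whereas that of PCK1 was 1.19, and 0.962% had a larger one.

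PC and PCK2 did not separate the levels in backfat. PC had 12.42, 12.49, 12.54 and 12.70 on the low-fed arrays and 12.32, 12.43, 12.54 and 12.76 on the high-fed ones, a difference of 0.03 with a 95% interval of -0.27 to 0.33 (limma, adjusted p = 0.952). PC was thus the most even of the members in this tissue, with all 8 arrays within 0.44 of each other. PCK2 had 4.15, 4.29, 4.68 and 4.71 on the low-fed and 3.88, 4.25, 4.37 and 4.50 on the high-fed arrays, all near the floor, with a difference of 0.21 (limma, adjusted p = 0.716).

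Of the 4 member probe sets tested for feeding in backfat, 0 passed the adjusted threshold, where 0% of all 12686 did. At an unadjusted p below 0.05 there were 2, where 11.1% of all probe sets lay. All low-fed arrays stood above all high-fed ones for 2 of the 4, where 3.25% of all probe sets did so. An exact two-sided permutation test of the 4 low-fed against the 4 high-fed arrays gave p = 0.0286 for PCK1 and for FBP1, the smallest value that the design allows, in a family of 10 such tests over both tissues. After Benjamini-Hochberg adjustment over those 10 tests, the exact permutation p was 0.143 for both genes, which does not pass. For PC and PCK2 the exact permutation p was 0.343 or more.

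**Figure D2:**
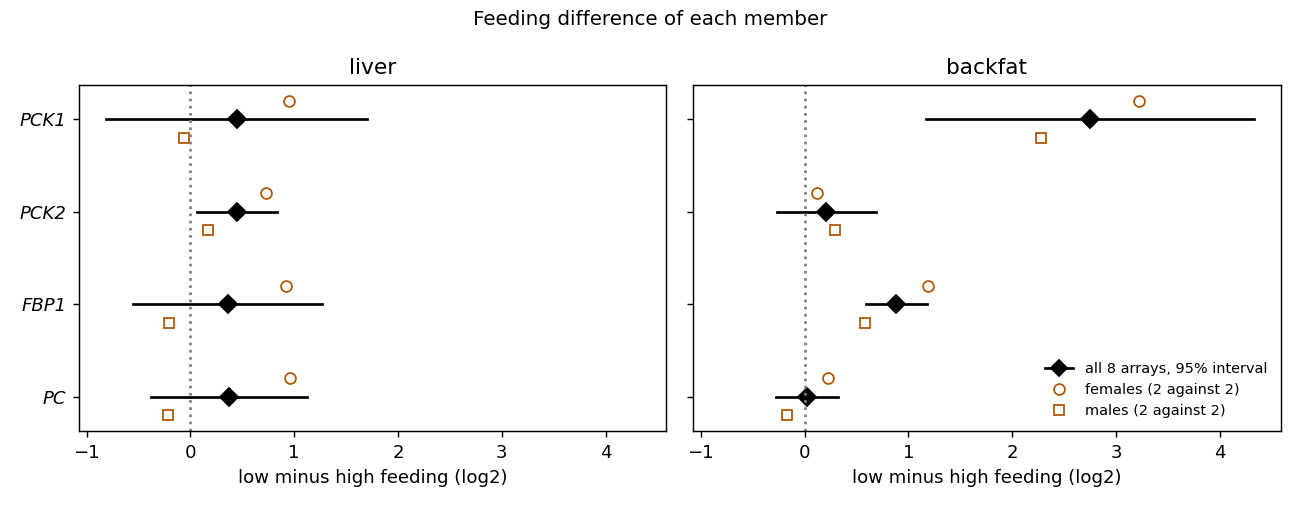
Low minus high feeding difference (log2) of each member in liver and in backfat. Diamonds are the limma estimate over 8 arrays with its 95% interval, circles the females and squares the males alone (2 arrays against 2, with no test). The backfat intervals of PCK1 (1.17 to 4.33) and FBP1 (0.59 to 1.18) lie above 0, and in liver the female point lies to the right of the male point for every member.

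The backfat difference had the same direction in both sexes. For PCK1 the low minus high difference was 3.22 in females and 2.28 in males, and for FBP1 it was 1.19 in females and 0.58 in males. The sex by feeding interaction was tested directly and passed for 0 of the 4 member probe sets, against 0% of all probe sets. It was 0.94 ± 1.32 (SE; adjusted p = 0.921, limma) for PCK1 and 0.60 ± 0.25 (SE; adjusted p = 0.893, limma) for FBP1.

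Markers of other cell types were set beside these results, and none of them passed for feeding in backfat. Of 15 hepatocyte markers on the array, 11 were tested in backfat and 0 passed, with a median difference of 1.45 against 0.01 over all probe sets. Means were higher at low feeding for 10 of the 11, as for 51.1% of all probe sets. SERPINA1, which gave the median, TTR and HPX were each above 4 on 2 low-fed arrays and 0 high-fed ones. They entered the test through low-fed arrays alone, so the filter partly set the median and this count. The summed level (log2) of the 15 markers was 11.74 to 12.88 on low-fed and 11.28 to 12.06 on high-fed arrays. Albumin (ALB) averaged 8.86 ± 1.55 (SD, n = 4) at low and 6.49 ± 2.38 (SD, n = 4) at high feeding. APOA2, TTR, SERPINA1, AHSG, CPS1, TAT and HPX were below 4 on all high-fed backfat arrays, and TAT alone on all low-fed ones. HNF4A, a transcription factor of hepatocytes, and PPARGC1A, a coactivator of PCK1 in liver, are regulators and not among the 15 markers. Both were below 4 on all 8 backfat arrays, and PPARGC1A ran only from 5.86 to 7.78 in liver.

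The mean of the hepatocyte markers was 6.97 and 6.69 on the arrays of the low-fed male 15 and female 20, against 5.40 and 4.40 on those of the low-fed female 23 and male 16. On the high-fed arrays it was 5.50, 4.82, 4.38 and 3.73. With the arrays of animals 15 and 20 left out, the difference was 2.34 ± 0.92 (SE) for PCK1 and 0.96 ± 0.18 (SE) for FBP1. Only the low-fed male 16 and female 23 then remained against the high-fed arrays, of which none was left out. That choice was made after the values were seen, so these differences cannot show what part hepatocyte RNA plays in the PCK1 and FBP1 values.

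**Figure D3:**
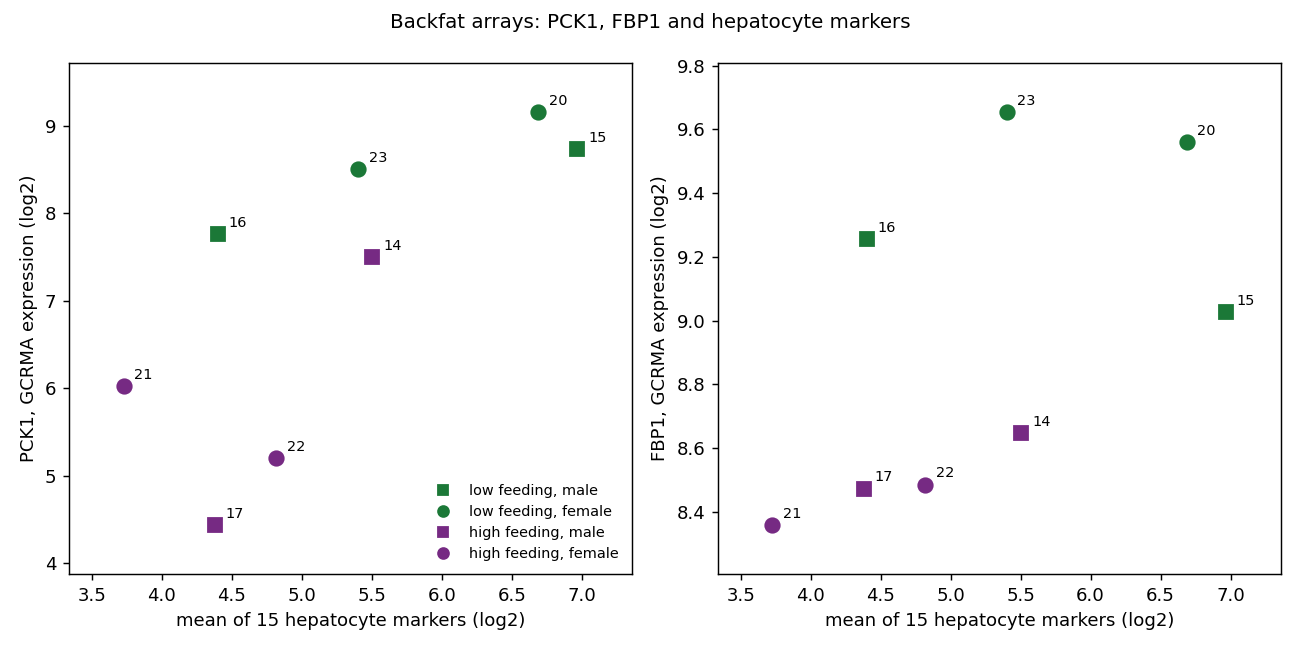
PCK1 (left) and FBP1 (right) expression (log2) on each backfat array against the mean of 15 hepatocyte markers (log2), with the animal number beside each point. Green is low and purple high feeding, squares are males and circles females. The low-fed arrays of animals 15 and 20 have the highest marker means (6.97 and 6.69) and the high-fed female 21 the lowest (3.73).

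Macrophage markers had lower means at low feeding in backfat for 4 of 4 genes, with a median of -1.06 and a summed level (log2) of 6.45 to 7.65 on low-fed and 7.67 to 9.13 on high-fed arrays, and 0 passed. Fat cell markers had lower means for 5 of 5, with a median of -0.28, and again 0 passed. Over all probe sets in backfat, 51.1% had higher means at low feeding and the median was 0.01. In bulk tissue, fewer cells of a type cannot be told apart from less RNA per cell. The part that these cell types play in the PCK1 and FBP1 values was not tested.

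LEP, the fat cell hormone leptin, had the opposite order, with 6.91 to 7.88 on low-fed and 8.08 to 10.60 on high-fed backfat arrays. Its difference was -2.06 ± 0.40 (SE, limma, adjusted p = 0.203). The share of all probe sets with every low-fed array below every high-fed one is not given here. ADIPOQ, the hormone adiponectin, overlapped between the levels, with a difference of -0.28 ± 0.37 (SE; adjusted p = 0.796, limma).

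In liver the feeding levels overlapped for all members. PCK1 stood at 10.31, 11.55, 12.30 and 12.41 on the low-fed arrays and at 9.79, 11.28, 11.52 and 12.19 on the high-fed ones. The difference was 0.45 with a 95% interval of -0.82 to 1.71 (limma, adjusted p = 0.776). Within groups PCK1 had an SD of 0.96 in liver, and 1.91% of probe sets had a larger one.

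FBP1 had 12.05, 12.83, 12.84 and 13.52 on the low-fed liver arrays and 11.84, 12.15, 12.37 and 13.45 on the high-fed ones. Its difference was 0.36, with a 95% interval of -0.55 to 1.27 (limma, adjusted p = 0.751). For PC the values were 10.37, 11.15, 11.21 and 11.72 on the low-fed and 9.86, 10.32, 11.09 and 11.71 on the high-fed arrays. That gave 0.37, with an interval of -0.38 to 1.12 (limma, adjusted p = 0.686). PCK2 came closest to separating the levels in liver, with 10.45, 10.68, 10.71 and 10.73 on the low-fed arrays against 9.71, 10.28, 10.32 and 10.47 on the high-fed ones. Only the lowest low-fed and the highest high-fed array crossed, and the difference was 0.45 ± 0.16 (SE; 95% interval 0.07 to 0.83; limma, adjusted p = 0.383). The second PCK2 probe set and the third had differences of 0.57 and 0.62 in the same direction. However, the third was above 4 on only 4 of the 8 liver arrays, and in males the second went the other way, with -0.55. The exact permutation p was 0.429 for the second and 0.286 for the third.

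Of the 6 member probe sets, 0 passed for feeding in liver, where 0% of 12617 did, and 1 had an unadjusted p below 0.05, where 11.5% of all probe sets had. For 0 of them did all low-fed arrays stand above all high-fed ones, where 2.8% of probe sets did so. The estimates for PCK1 and FBP1 moved most with the 2 high-fed males, which had the lowest (male 17) and the highest (male 14) levels of both genes among high-fed livers. Without male 17 they were -0.15 for PCK1 and -0.043 for FBP1, and without male 14 they were 1.05 and 0.76, with adjusted p-values from 0.284 to 0.971 in limma. That of PC was 0.032 without the low-fed female 21 and 0.71 without the low-fed female 18.

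Within the livers of females the members were more alike. Both low-fed females stood above both high-fed females for PCK1 (12.30 and 12.41 against 11.28 and 11.52), for FBP1 (12.84 and 13.52 against 12.15 and 12.37), for PC (10.37 and 11.72 against 9.86 and 10.32) and for PCK2 (10.71 and 10.73 against 9.71 and 10.28). The female differences were 0.95, 0.92, 0.96 and 0.73 in that order. This held for 5 of the 6 probe sets, where 19.1% of all tested probe sets showed it. In males the same differences were -0.06, -0.20, -0.22 and 0.17, and both low-fed males stood above both high-fed ones for 0 of the 6, where 19.1% of all probe sets did.

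A difference of feeding effects between the sexes was not established by the interaction test in liver, which 0 of 6 member probe sets passed, against 0% of all. It was 1.01 ± 1.06 (SE) for PCK1, 1.12 ± 0.77 (SE) for FBP1, 1.17 ± 0.63 (SE) for PC and 0.56 ± 0.32 (SE) for PCK2, with adjusted p-values from 0.904 to 0.945 in limma. The lowest unadjusted p was that of the second PCK2 probe set, at 0.00342, with 2.24 ± 0.51 (SE; adjusted p = 0.898, limma). It stood at 5.46 and 5.09 in low-fed against 4.15 and 3.03 in high-fed females, and at 4.93 and 4.80 in low-fed against 5.29 and 5.54 in high-fed males.

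Whether feeding acted differently in the tissues was tested over all 16 arrays, as the backfat minus the liver difference. For PCK1 it was 2.31 ± 0.93 (SE; 95% interval 0.27 to 4.34; limma, adjusted p = 0.511). For FBP1 it was 0.52 ± 0.43 (SE; adjusted p = 0.805, limma), with an interval of -0.43 to 1.48, and it was 0.12 without the liver array of male 14 and 0.93 without that of male 17. PC had -0.34 and PCK2 -0.24, with adjusted p-values of 0.853 and 0.859 in limma. Of the 6 member probe sets 0 passed, where 0.0215% of all did, and 1 had an unadjusted p below 0.05, where 8.77% of all had. The PC value was -0.68 without the liver array of female 18 and -0.0057 without that of female 21. The larger PCK1 difference in backfat is thus not shown to differ from that in liver after adjustment.

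Sex was the other factor. In liver 0 of the 6 member probe sets differed between females and males at the adjusted threshold, where 4.53% of all probe sets did. PC averaged 10.57 ± 0.80 (SD, n = 4) in females and 11.29 ± 0.28 (SD, n = 4) in males, a difference of -0.72 ± 0.32 (SE; adjusted p = 0.279, limma). PCK1 averaged 11.88 ± 0.56 (SD, n = 4) in females and 10.96 ± 1.10 (SD, n = 4) in males, a difference of 0.92 ± 0.53 (SE; adjusted p = 0.417, limma). In these means the SD mixes both feeding levels. Leaving out 1 array gave -1.06 (without female 21) to -0.38 (without female 18) for PC and 0.32 (without male 17) to 1.52 (without male 14) for PCK1. FBP1 and PCK2 had 0.18 and -0.12. The second PCK2 probe set had the lowest p of the 6, with -0.71 ± 0.26 (SE; adjusted p = 0.197, limma), and the third had -0.28.

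In backfat 0 of 4 passed for sex, where 0.11% of all did, and the member differences ran from -0.08 for PC to 0.17 for PCK2. The tissue by sex interaction passed for 0 of 6, where 2.21% of all did. Its lowest unadjusted p among the members was 0.0307, for the second PCK2 probe set (limma, adjusted p = 0.302). That probe set was below 4 on all 8 backfat arrays. Its interaction is therefore in the main its liver sex difference of -0.71 set against the floor.

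How the members varied together was described over the 8 arrays of each tissue, in 12 pairs. In liver PCK1 and FBP1 ran in parallel, with Pearson's r = 0.863 (exact permutation p = 0.00595, Benjamini-Hochberg adjusted over the pairs 0.0714) and Spearman's rho = 0.929 (exact permutation p = 0.00223, adjusted 0.0268). Without males 16 and 17, the 2 arrays farthest from the PCK1 median, r was 0.801. On deviations from the group means, which remove sex and feeding, r was 0.920. With 2 arrays per group, the deviations within a group mirror each other, so these 8 points are not independent. The extremes show the pattern. Male 17 had the lowest PCK1 and FBP1 of all livers, while female 21 and male 14, on opposite feeding levels, had the highest FBP1 and, after female 18, the next highest PCK1.

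**Figure D4:**
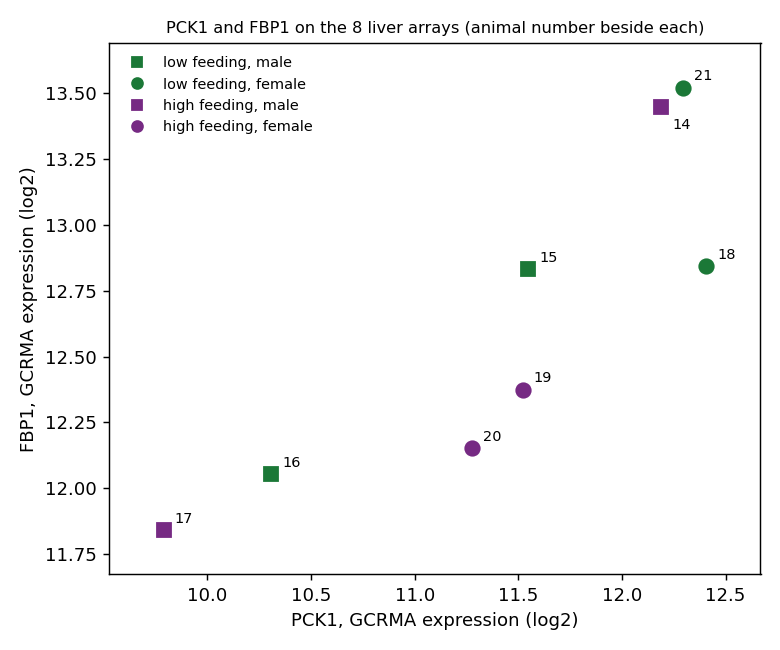
FBP1 against PCK1 expression (log2) on the 8 liver arrays, with the animal number beside each point. Green is low and purple high feeding, squares are males and circles females. The arrays run from male 17 (9.79 and 11.84) to male 14 (12.19 and 13.45) and female 21 (12.30 and 13.52), with both feeding levels along the line.

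The other liver pairs had r from 0.06, for PCK1 and PC, to 0.57, for PCK2 and FBP1, and the adjusted exact permutation p-values of their r were 0.386 or more. In backfat PCK1 and FBP1 fell into separate clusters by feeding level, so no pooled r is given. On deviations from the group means, which mirror each other here too, r was 0.13. Among the other backfat pairs the adjusted exact permutation p-values were 0.386 or more.

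The genes most like each member were ranked by Pearson's r over the 8 arrays of a tissue, among 4685 genes in liver and 4680 in backfat. No p is given because they were picked as the highest. In liver PCK1 was most like ASAP1 (r = 0.980, rho = 0.905), the lysosomal protease gene CTSB (r = 0.976, rho = 0.881) and FIS1 (r = 0.931, rho = 0.905). FBP1 in liver was most like the glutathione reductase gene GSR (r = 0.968, rho = 0.905), SNX1 (r = 0.942, rho = 0.952) and the lysosomal arylsulfatase gene ARSA (r = 0.929, with the same rank order on all arrays). PC was most like CIDEB, PRPF19 and COQ6 (r from 0.950 to 0.965), and PCK2 like USP3, AIMP1 and LAMP1 (r from 0.938 to 0.960).

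In backfat PCK1 was most like SIK3, a salt-inducible kinase (r = 0.942, rho = 0.762), the secreted protein gene CCDC80 (r = 0.932, rho = 0.905) and C6H1orf174 (r = 0.928, rho = 0.810). FBP1 was most like the homeobox gene HOXA9 (r = 0.982, rho = 0.952), UPF3B (r = 0.965, rho = 0.952) and TMEM120A (r = 0.950, rho = 0.976). For these 2 members the arrays of the feeding levels do not overlap, so the points of each r fall into 2 clusters. PC was most like POFUT1, WDR3 and CSRNP2 (r from 0.932 to 0.959), and PCK2 like PPP3CA, MRPS11 and ECD (r from 0.870 to 0.890). No gene was among the 3 nearest of more than 1 member or tissue.

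Other genes of the pathway were taken from lists and tested in the same fits, with each gene at its brightest probe set. Of 16 listed genes for the other steps of gluconeogenesis, 11 were on the array and tested, and 0 passed for feeding in either tissue. Their median difference was 0.05 in backfat and -0.05 in liver, against 0.01 and -0.01 over all probe sets. In backfat the lowest p was that of FBP2, the muscle form of fructose bisphosphatase, with 10.89, 10.92, 11.26 and 11.62 at low and 10.22, 10.30, 10.42 and 10.67 at high feeding. The levels did not overlap, and the difference was 0.77 ± 0.16 (SE; adjusted p = 0.212, limma). TPI1, PGK1 and MDH1 followed with 0.28, -0.26 and 0.23.

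In liver the lowest p-values of that list were those of PGK1 and of MDH1, the cytosolic malate dehydrogenase. PGK1 had -0.66 ± 0.12 (SE, limma, adjusted p = 0.266) and MDH1 -0.85 ± 0.23 (SE, limma, adjusted p = 0.321). In both, all low-fed arrays lay below all high-fed ones, an order whose share over all probe sets is not given here. GAPDH had -0.27 and the glucose 6-phosphate transporter SLC37A4 0.45. Between the tissues 4 of the 11 were higher in liver and 6 higher in backfat, where 32.2% and 43.6% of all probe sets were called so. SLC37A4 and the aspartate aminotransferase GOT1 were higher in liver by 5.42 and 2.22, and FBP2 and MDH1 were higher in backfat, with -5.61 and -2.81. The 2 bisphosphatases thus went opposite ways between the tissues, FBP1 higher in liver and FBP2 higher in backfat.

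Genes that bring lactate, alanine, glycerol or propionate carbon into the path had a median feeding difference of 0.26 in backfat, against 0.01 over all probe sets. Means were higher at low feeding for 9 of 10 tested, as for 51.1% of all probe sets, and 0 passed. The alanine aminotransferase GPT had 0.81 ± 0.27 (SE; adjusted p = 0.351, limma) and GPD1, which makes glycerol phosphate from a glycolytic intermediate, 0.49 ± 0.17 (SE; adjusted p = 0.378, limma). MPC1, a subunit of the mitochondrial pyruvate carrier, had 0.26 and LDHA -0.58. In liver 0 of 11 passed, with a median of 0.05. GPT had 0.36, the glycerol kinase gene GK -0.33, LDHA -0.24 and LDHB 0.68. Between the tissues 4 of 11 were higher in liver and 6 in backfat, where 32.2% and 43.6% of all probe sets were called so. LDHB had the largest difference, -3.49, towards backfat.

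Genes of triglyceride synthesis and breakdown, where the product of glyceroneogenesis is used, had a median of 0.12 in backfat over 13 genes, with 0 passing. In 4 of the 13 the levels did not overlap, with low above high in 3, where 3.25% of all probe sets had that order. These were LPIN1 and DGAT1, which act late in triglyceride synthesis, with 0.78 ± 0.21 (SE; adjusted p = 0.283, limma) and 0.62 ± 0.19 (SE; adjusted p = 0.325, limma). The lipase gene PNPLA2 had 0.25. In GPAM, which acylates glycerol phosphate first, all low-fed arrays lay below all high-fed ones, with -0.26. The share of all probe sets in that reverse order is not given here. In liver GPAM had -1.08 ± 0.24 (SE; adjusted p = 0.308, limma), the lowest p among 11 tested, of which 0 passed; GK, DGAT1 and AGPAT2 had -0.33, -0.21 and -0.21. Between the tissues 9 of 13 were higher in backfat, led by FABP4 and LPL, and 4 in liver. Over all probe sets 43.6% were called higher in backfat and 32.2% in liver.

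Of 20 regulators of the pathway, 14 were on the array, 7 were tested for feeding in backfat and 9 in liver, and 0 passed in either. Means were higher at low feeding for 8 of 9 in liver, with a median of 0.25 against -0.01 over all probe sets. In backfat they were higher for 4 of 7, with a median of 0.08 against 0.01. Over all probe sets 48.2% had higher means in liver and 51.1% in backfat. KLF15, a transcription factor of fasting and glucocorticoid responses, had 0.82 ± 0.32 (SE, limma, adjusted p = 0.423) in backfat and 0.29 in liver. ATF4 had 0.25 in liver, CEBPA -0.40 and HNF4A 0.28. For ATF4 all low-fed liver arrays lay above all high-fed ones, as for 2.8% of all probe sets. The glucocorticoid receptor gene NR3C1 had 0.48 in backfat, CEBPA -0.38 and ATF4 -0.19. Between the tissues 4 of 10 were higher in liver, including HNF4A and PPARGC1A, where 32.2% of all probe sets were called so. Another 5 were higher in backfat, where 43.6% were, led by PPARG, the fat cell factor that drives PCK1 there. PPARG was below 4 on all liver arrays and averaged 10.49 in backfat.

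For the opposing steps of glycolysis and for control of pyruvate dehydrogenase, the median was near 0 in backfat over 9 genes, and -0.13 in liver over 8, with 0 passing in both. PDK4, the kinase that shuts off pyruvate dehydrogenase, stood out in backfat by size, with 1.22 ± 0.34 (SE; adjusted p = 0.290, limma), from 12.25 ± 0.69 (SD, n = 4) at low to 11.03 ± 0.76 (SD, n = 4) at high feeding with overlap. HK3, PFKP and PFKM had -0.30, -0.22 and -0.23. In liver PDHB, HK1, PFKL and HK3 had -0.32, -0.27, -0.15 and -0.11. Between the tissues 8 of 9 were higher in backfat and 0 in liver, where 43.6% and 32.2% of all probe sets were called so. GPD1 and GK belong to both the carbon entry and the triglyceride list.

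**Figure D5:**
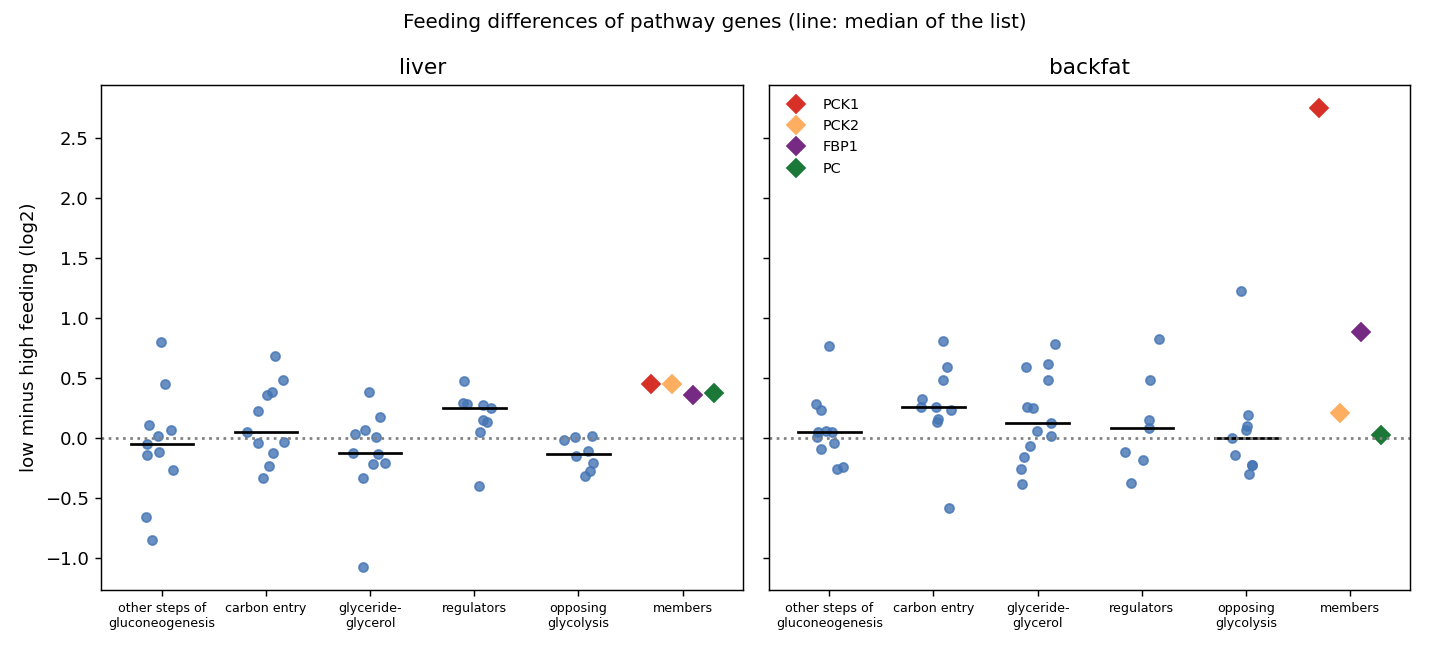
Low minus high feeding difference (log2) of the tested genes of 5 pathway lists (circles, with the list's median as a line) and of the 4 members (diamonds) in liver and backfat. In backfat PCK1 (2.75) lies above every listed gene, and the highest of the others is PDK4 (1.22) in the glycolysis list.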

How the data were processed

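RNA of liver and backfat was hybridised to Affymetrix porcine arrays after RiboPure extraction, per the labels' protocols. The deposited values are log2 expression values that the authors made with GCRMA, per the submitters' processing notes; GCRMA corrects background by probe sequence, while its version, its settings and the set of arrays it was run on are not stated in the labels. Of 24123 probe sets, 124 controls were left out. Platform annotation gave 10069 probe sets 1 symbol and 198 several, and 13732 are unnamed here.

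Group means of sex and feeding were fitted with limma 3.58.1 (lmFit, eBayes; R 4.3.3) within a tissue, or within both for tissue contrasts, on probe sets above 4 on at least 2 arrays. P-values were adjusted by Benjamini-Hochberg over every probe set of a fit, with a threshold of 0.05. The fits were first tested on simulated arrays with independent noise and no animal pairing, and no result here rests on that test. Single members were also tested by exact permutation. The members, lists, alternatives and rules were chosen with earlier results of these data known. The text names all member probe sets, the 3 genes nearest each, up to 4 genes of lowest p per list and tissue, those with the largest tissue difference, LEP and ADIPOQ. List members named beside these were picked after their values were seen.

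The labels' animal numbers pair the tissues of 4 males, and deviations from group means correlated between their tissues at 0.0889 (males 14 and 17) and 0.0442 (males 15 and 16). Numbers 20 and 21 belong to females whose liver and backfat labels give different feeding levels. The females were therefore left unpaired, and the fits had no animal block. No labels say more about the replicates, so p-values measure the spread between these arrays. No batch is given. Sequences are not used here.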

Additional observations from a re-analysis of the deposited data

Results flagged for a closer look

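PCK2 on the liver array of the high-fed female 20 stood at 9.71, apart from the other liver arrays, which lay between 10.28 and 10.73. Its gap to the nearest array was 0.561 of the whole range. In all, 48 sets of arrays were looked at in this way and 1 was set apart, where chance sets apart about 1 in 20.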

How the results depend on the processing

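The tissue difference of PCK1, FBP1 and PC passed under all 25 alternatives tried and that of PCK2 under all 27, while the feeding differences of PCK1 and FBP1 in backfat kept their direction and failed the threshold under all 19 (adjusted p from 0.0847 to 0.774 for PCK1 and from 0.0687 to 0.774 for FBP1, limma). Counts of probe sets called moved more. With all 16 arrays in 1 fit there were 12 for feeding in liver, 71 for feeding in backfat, 981 for sex in liver and 26 for sex in backfat, and with the males' replicate block added, as a random block, 12, 72, 980 and 26. With a single factor in the fit there were 2 for feeding in backfat. Without the filter there were 333 for sex in liver and 15 for tissue by feeding. Tissue by feeding had 1 with a filter at 6, with an intensity trend or with quantile normalization, and 0 in the males alone with a fixed replicate block, where PCK2 had 0.12 and PC 0.047. The block changed no call of a member. Without animals 15 and 20, PCK2 had -0.032 for feeding in backfat.

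Leaving out each array in turn gave counts of 0 to 1 for feeding in liver, in backfat and for sex by feeding in liver, 177 to 449 for sex in liver, 11 to 15 for sex in backfat, 1 to 34 for tissue by feeding and 174 to 386 for tissue by sex. In liver the feeding difference ran from -0.15 to 1.05 for PCK1 and from -0.043 to 0.76 for FBP1, and in backfat that of PC from -0.028 to 0.080. Sex differences ran from -0.22 to 0.58 for FBP1 and from -0.27 to 0.020 for PCK2 in liver, and from -0.65 to 0.88 for PCK1 in backfat. Sex by feeding ran from -0.19 to 2.21 for PCK1 in liver, and in backfat from -0.59 to 2.47 for PCK1 and from -0.44 to 0.10 for PCK2. Tissue by sex of FBP1 ran from -0.42 to 0.39. The cause of these shifts was not tested. PCK2 in backfat lies near the floor, and 2 arrays per group limit every difference.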
